A study of Mus musculus with 6 samples.

Results

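Nucleosides reach the gut lumen from digested nucleic acids and from shed cells, and 10 genes of their uptake and breakdown were followed here in mouse small-intestinal epithelium lacking Maf. The 10 genes were taken by name from a deposited table of 23390 genes. They are the sodium-coupled carriers Slc28a1, Slc28a2 and Slc28a3, the equilibrative carrier Slc29a1, the ectonucleotidases Nt5e and Enpp3, the purine enzymes Ada and Xdh, and the pyrimidine enzymes Upp1 and Cda. Each name matched 1 row of the table, and all 10 passed the filter on low counts. RNA came from viable small-intestinal cells of C57BL/6 mice, sorted as CD45- EpCAM+ (without a leukocyte marker and with an epithelial one). The control group, Maf.flox, carried floxed Maf without Cre, and the other, Vil.Cre Maf.flox, carried floxed Maf with Cre under the villin promoter, which is active in epithelium from crypt to villus tip. There were 3 libraries per group, and neither the ages of the mice nor whether each library was a separate mouse is stated, so each p-value reflects library-to-library spread, which may be technical. No group carried Cre alone, so an effect of Cre and the loss of Maf cannot be told apart.

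Dietary nucleotides are dephosphorylated outside the cell, and the nucleosides are then carried across the apical membrane with sodium by the Slc28 family. Inside the cell they are salvaged back to nucleotides or broken down, purines towards uric acid and pyrimidines towards small acids. Ada, Nt5e, Enpp3 and Slc28a2 are known as genes whose RNA is highest in enterocytes near the villus tip. RNA of whole sorted epithelium was measured, so fewer villus tip cells and less RNA per cell cannot be told apart.

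Library totals lay between 17464355 and 24802525 counts, so that 1 CPM stands for 17.5 to 24.8 counts. CPM is the count per 1000000 counts of the library, scaled between libraries by the trimmed mean of M-values (TMM). Maf had 9398, 5615 and 3893 counts in Maf.flox replicates 1, 2 and 3 and 16, 1 and 1 counts in Vil.Cre Maf.flox replicates 1, 2 and 3, as the labels state. The control level of Maf was itself uneven, with 395.1, 292.3 and 184.6 CPM in replicates 1, 2 and 3. Maf.flox replicate 3 stood apart from its group, with a chi-square per gene of 133 and 61.7 against the other controls, which differed from each other by 37.9. Xist and Y-linked counts marked 1 of 3 controls and 2 of 3 Vil.Cre Maf.flox libraries as male, so sex was unbalanced. The epithelial marker Epcam lay between 1922 and 2305 CPM in the 6 libraries, and the leukocyte gene Ptprc between 0.1014 and 2.29 CPM. The summed level of 12 immune markers was 21.82 to 32.21 CPM in Maf.flox and 30.94 to 35.1 CPM in Vil.Cre Maf.flox.

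Of the 10 genes, 2 rose in Vil.Cre Maf.flox and 0 were called lower at an adjusted p under 0.05 (edgeR's quasi-likelihood test, Benjamini-Hochberg adjustment over 13740 genes). Upp1, the enzyme that splits uridine into uracil and ribose phosphate, and Slc28a3, the carrier with the widest substrate range, were the ones that rose. Over all genes 0.546% were called by this test, 0.189% as higher and 0.357% as lower. An unadjusted p under 0.05 was found for 5 of the 10, of which 3 had lower values, against 16.4% of all genes. The median log2 fold change of the 10 was -0.12, against -0.01 over all genes, with 6 values below 0 and 4 above. Values of the 2 groups of libraries did not overlap for 4 genes, Upp1 and Slc28a3 on the higher side and Slc28a1 and Cda on the lower. Over all genes, 10.1% were free of overlap on the higher side and 10.5% on the lower side. The 10 were chosen with earlier results of these data known, so the shares over all genes are a description and no test.

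**Figure D1:**
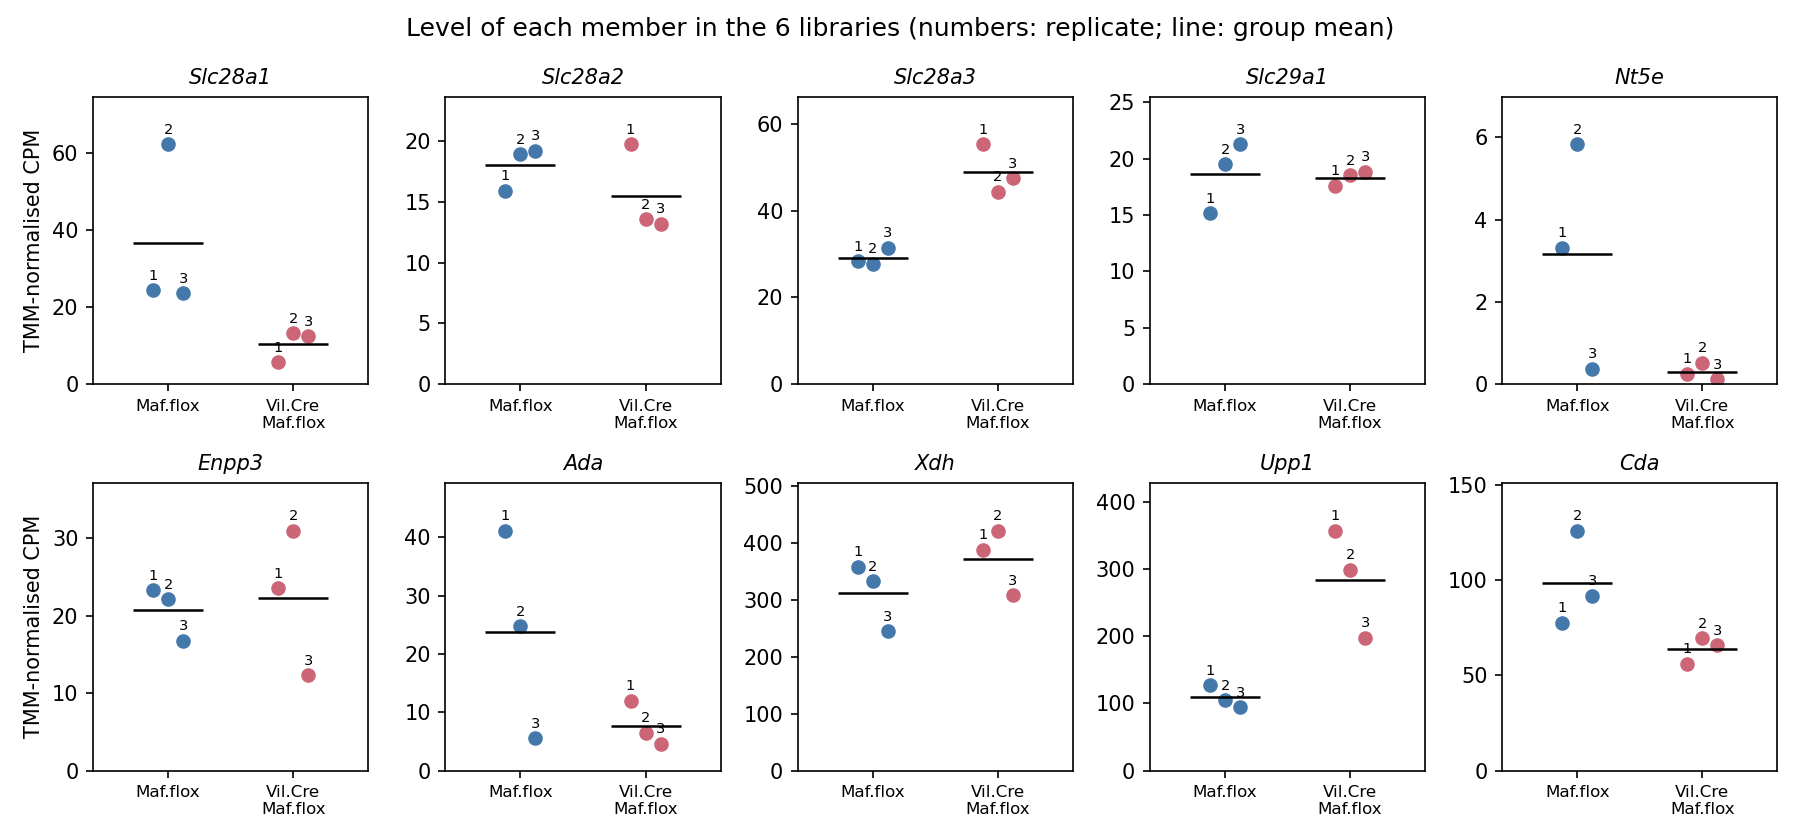
TMM-normalised CPM of each of the 10 genes in the 3 Maf.flox (blue) and 3 Vil.Cre Maf.flox libraries (red), each axis starting at 0, with replicate numbers and a line at the group mean. Upp1 and Slc28a3 are higher in each Vil.Cre Maf.flox library than in any control, while for Nt5e and Ada the control replicate 3 lies among the Vil.Cre Maf.flox values.

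Per length, the order of the genes differed between the groups. By deposited FPKM (fragments relative to gene length and library size), Cda was the highest in Maf.flox at 94.71 ± 23.0 and was followed by Upp1 at 55.23 ± 8.96 and Xdh at 33.83 ± 6.61 FPKM (SD, n = 3), with no overlap of libraries between neighbours. Slc28a1 at 12.34 ± 7.32 and Ada at 11.88 ± 8.99 FPKM came next, and their libraries overlapped. Slc29a1, Slc28a2, Slc28a3 and Enpp3 had control means of 4.624, 4.263, 3.677 and 3.429 FPKM, and neighbours in this order overlapped. Nt5e was the lowest at 0.367 ± 0.313 FPKM, below all libraries of Enpp3. In Vil.Cre Maf.flox, Upp1 came ahead of Cda, with 145.2 ± 41.0 against 61.84 ± 6.58 FPKM (SD, n = 3), and Xdh followed at 40.65 FPKM. Slc28a3 came next at 6.216 FPKM, ahead of Slc29a1 (4.579), Ada (3.839), Enpp3 (3.703), Slc28a2 (3.694), Slc28a1 (3.573) and Nt5e (0.0353). The libraries overlapped between neighbours from Slc29a1 through Slc28a1, while Slc28a3 did not overlap Slc29a1 and Nt5e did not overlap Slc28a1. The level of Upp1 over that of Cda was 0.861, 0.439 and 0.541 in Maf.flox and 3.35, 2.27 and 1.58 in Vil.Cre Maf.flox, a ratio chosen after its values were seen and not tested.

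The 3 Slc28 carriers share their sodium-coupled transport and differ in substrates. Slc28a1 prefers pyrimidine nucleosides, Slc28a2 prefers purine nucleosides and Slc28a3 takes both. Slc28a3 (ENSMUSG00000021553, GRCm38 chromosome 13, 58545399 to 58610877, minus strand, protein coding) had 28.38, 27.75 and 31.45 CPM in Maf.flox and 55.23, 44.33 and 47.41 CPM in Vil.Cre Maf.flox. The Vil.Cre Maf.flox libraries were all above the controls, and the spread within each group was small. Its log2 fold change was 0.75 (SE 0.114, 95% interval 0.49 to 1.01, adjusted p = 0.0389), a 1.68-fold rise. It kept its call in 8 of 15 alternative fits. The call was lost by leaving out Maf.flox replicate 1 or 2 (adjusted p = 0.0837 and 0.165, edgeR), by leaving out any of the Vil.Cre Maf.flox libraries (in order of replicate, 0.19, 0.0588 and 0.078), with limma-voom (0.0527) and with a sex term (0.0565), while the log2 fold change stayed between 0.66 and 0.83 in all 15.

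Slc28a1 (ENSMUSG00000025726, chromosome 7, 81114799 to 81170416, plus strand) lay in the other direction. It had 24.3, 62.1 and 23.62 CPM in Maf.flox and 5.782, 13.27 and 12.49 CPM in Vil.Cre Maf.flox. Each Vil.Cre Maf.flox library was below each control, and Maf.flox replicate 2 was far above the other controls. The log2 fold change was -1.80 (SE 0.503, 95% interval -3.02 to -0.58), and it was not called (adjusted p = 0.174, edgeR). Without Maf.flox replicate 2 it was -1.18, a change in fold of over 1.5 times. The summed level of 7 tuft cell markers was also highest in that library, at 66.21 CPM against 32.29 and 16.46 CPM in the other controls and 13.8 to 15.06 CPM in Vil.Cre Maf.flox. The summed level of 7 enteroendocrine markers was highest there too, at 838.9 CPM against 447.4 and 305.8 CPM in the other controls and 270.3 to 505.5 CPM in Vil.Cre Maf.flox. All 6 tested tuft markers lay below 0, with a median log2 fold change of -1.60, and 0 were called. Il25, a defining tuft cell gene, had between 0 and 0.3644 CPM. Of 9 enterocyte and pan-epithelial markers, Epcam, Fabp1 (41.28 CPM) and Sis (2945 CPM) were highest in Maf.flox replicate 2 and the others were not. The sum of the 9 was highest in Maf.flox replicate 1, at 25860 CPM against 22820 CPM in replicate 2. Apoa4, a villus tip gene, was highest in replicate 2, at 81.62 CPM. The part of tuft cells, enteroendocrine cells and enterocytes in the Slc28a1 values was not tested.

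Slc28a2 (ENSMUSG00000027219, chromosome 2, 122426477 to 122461137, plus strand) had 15.93, 18.95 and 19.21 CPM in Maf.flox and 19.73, 13.56 and 13.22 CPM in Vil.Cre Maf.flox. The groups overlapped, since Vil.Cre Maf.flox replicate 1 was the highest of the 6 libraries. Its log2 fold change of -0.22 had a 95% interval of -0.62 to 0.19 (adjusted p = 0.605). The equilibrative carrier Slc29a1 (ENSMUSG00000023942, chromosome 17, 45585200 to 45599606, minus strand), which lets nucleosides pass down their gradient, had 15.14, 19.52 and 21.25 CPM in Maf.flox and 17.6, 18.5 and 18.83 CPM in Vil.Cre Maf.flox. The Vil.Cre Maf.flox values lay inside the control range, and the 95% interval of the log2 difference, -0.36 to 0.31, leaves room for a change of that size either way. Slc29a1 overlaps the antisense gene Gm17080, and whether counting used strand is not stated, so reads of the pair cannot be told apart. The same holds for Slc28a1 and the pseudogene Ndufs6b on the opposite strand, and Xdh overlaps the pseudogene CT025731.2 on its own strand.

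Summed over the 3 Slc28 genes, the level per length was 15.7, 28.7 and 16.4 FPKM in Maf.flox and 13.7, 13.3 and 13.5 FPKM in Vil.Cre Maf.flox. Slc28a1 made up 52.8, 72.4 and 48.4% of this sum in the controls and 14.4, 33.7 and 31.7% in Vil.Cre Maf.flox. Slc28a3 made up 23, 12.1 and 24% in the controls and 51.3, 42.1 and 44.9% in Vil.Cre Maf.flox. Slc28a1 was thus the most abundant Slc28 RNA per length in each control and Slc28a3 in each Vil.Cre Maf.flox library. These shares were computed after the values of the single genes were seen and are a description with no test.

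**Figure D2:**
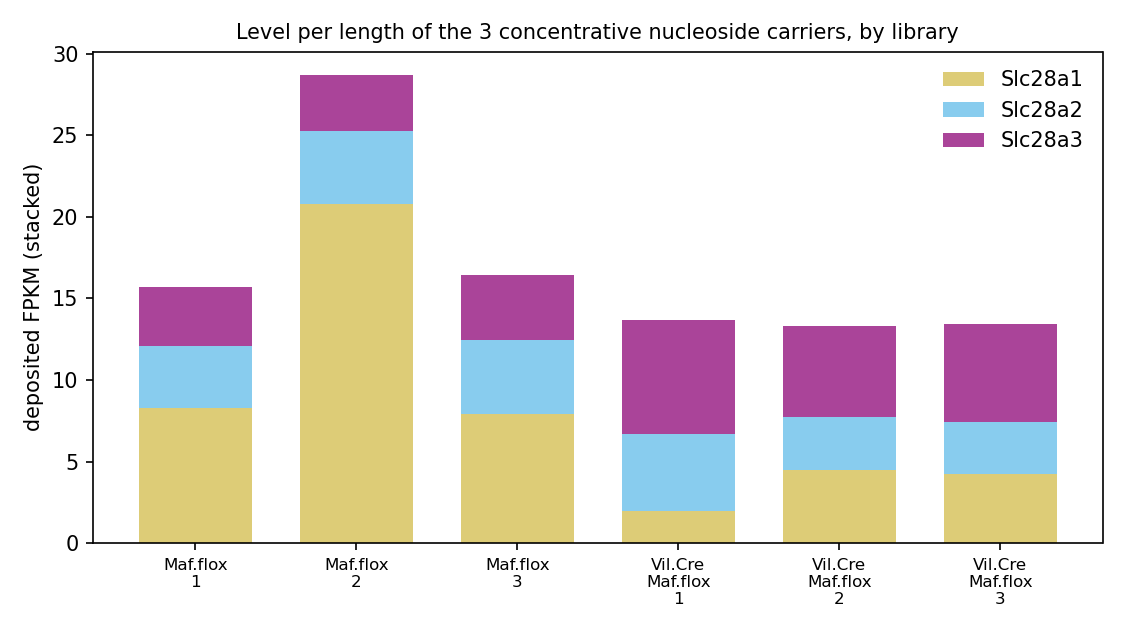
Deposited FPKM of Slc28a1, Slc28a2 and Slc28a3 stacked for each of the 6 libraries. Slc28a1 takes 48.4 to 72.4% of the stack in the Maf.flox libraries and 14.4 to 33.7% in the Vil.Cre Maf.flox libraries, and Slc28a3 is the largest part of the latter.

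Outside the cell, Nt5e (CD73), a membrane-anchored enzyme that turns AMP into adenosine, had the largest difference of the 10 and also the fewest counts. Nt5e (ENSMUSG00000032420, chromosome 9, 88327197 to 88372092, plus strand) had 79, 112 and 8 counts in Maf.flox replicates 1, 2 and 3 and 5, 9 and 3 counts in Vil.Cre Maf.flox. On the CPM scale these were 3.322, 5.83 and 0.3794 against 0.2536, 0.5285 and 0.1284. Control replicate 3 was below Vil.Cre Maf.flox replicate 2, so the groups overlapped. The log2 fold change of -3.42 (SE 0.98, 95% interval -5.72 to -1.13) was not called (adjusted p = 0.161, edgeR), and it was -2.65 without Maf.flox replicate 2 and -4.02 without Vil.Cre Maf.flox replicate 2. Enpp3 (ENSMUSG00000019989, chromosome 10, 24772406 to 24842823, minus strand), which cleaves extracellular nucleotides, had 23.29, 22.12 and 16.74 CPM in Maf.flox and 23.53, 30.95 and 12.28 CPM in Vil.Cre Maf.flox. Both the highest and the lowest library were Vil.Cre Maf.flox ones, and the log2 fold change of 0.10 changed sign between fits.

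Ada, which deaminates adenosine to inosine, was also uneven among the controls. Ada (ENSMUSG00000017697, chromosome 2, 163726584 to 163750239, minus strand) had 41.16, 24.78 and 5.502 CPM in Maf.flox and 11.97, 6.459 and 4.578 CPM in Vil.Cre Maf.flox. Control replicate 3 again lay among the Vil.Cre Maf.flox libraries. The log2 fold change was -1.64 (SE 0.77, 95% interval -3.56 to 0.28, adjusted p = 0.374), and it was -0.97 without Maf.flox replicate 1. Without Maf.flox replicate 3, both genes were called lower, Nt5e at -3.95 (adjusted p = 0.0052) and Ada at -2.11 (adjusted p = 0.0439), in a fit that called 5% of all genes. That library also had the highest summed level of 7 Paneth cell markers, 36070 CPM against 5650 and 18790 CPM in the other controls and 7721 to 11180 CPM in Vil.Cre Maf.flox. Its summed level of 9 enterocyte and pan-epithelial markers was 16530 CPM, against 25860 and 22820 CPM in the other controls and 14960 to 21530 CPM in Vil.Cre Maf.flox. For 7 goblet markers the sum was 15260 CPM, against 34020 and 28400 CPM in the other controls and 15180 to 28880 CPM in Vil.Cre Maf.flox. Among the controls, Muc2, Tff3, Clca1, Fcgbp and Zg16 were lowest in this library. Spink4 was highest in it (650.7 CPM), and Agr2 (573.6 CPM) lay between the other controls. The sum of 7 crypt stem and cycling markers was highest in this library, at 3001 CPM against 2082 and 2429 CPM in the other controls. In Vil.Cre Maf.flox that sum was 1940 to 2693 CPM. Olfm4 had 2251 CPM in Maf.flox replicate 3 and weighed most in the sum. Lgr5, Olfm4, Ascl2, Smoc2 and Pcna were each highest in that library. The cycling markers Mki67 and Top2a were highest in Vil.Cre Maf.flox replicate 3, at 226.1 and 255.4 CPM. The part of these cell types in the Ada and Nt5e values was not tested.

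Xdh (ENSMUSG00000024066, chromosome 17, 73883895 to 73950196, minus strand), which makes uric acid from hypoxanthine and xanthine, was the most abundant purine gene of the set. It had 358, 332.2 and 244.6 CPM in Maf.flox and 387.8, 421.2 and 307.6 CPM in Vil.Cre Maf.flox. The groups overlapped, and the log2 fold change of 0.26 had a 95% interval of -0.14 to 0.65 (adjusted p = 0.513).

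Upp1 (ENSMUSG00000020407, chromosome 11, 9118103 to 9136170, plus strand) had 126.9, 104.9 and 94.24 CPM in Maf.flox and 356.8, 298.5 and 197.3 CPM in Vil.Cre Maf.flox. The lowest Vil.Cre Maf.flox library was well above the highest control, and the spread was wider among the Vil.Cre Maf.flox libraries. The log2 fold change was 1.39 (SE 0.219, 95% interval 0.88 to 1.89, adjusted p = 0.0464), a 2.61-fold rise. It kept its call in 10 of 15 alternative fits and lost it without Maf.flox replicate 1 or 2 (adjusted p = 0.0638 and 0.185, edgeR), or with replicate 1 or 2 of Vil.Cre Maf.flox removed (0.174 and 0.0943) and with limma-voom (0.0574). Cda (ENSMUSG00000028755, chromosome 4, 138338424 to 138367992, minus strand), which deaminates cytidine to uridine, had 77.82, 126.1 and 91.97 CPM in Maf.flox and 56.2, 69.47 and 65.89 CPM in Vil.Cre Maf.flox. All Vil.Cre Maf.flox libraries were below the controls. Cda's log2 fold change of -0.63 (SE 0.176, 95% interval -1.03 to -0.22) was not called (adjusted p = 0.145).

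Markers of leukocytes, which the sort was to remove, had values in both directions. Of the 12, 5 passed the filter and were tested, with 2 below 0, a median log2 fold change of 0.89 and 0 called (edgeR). Ms4a1 had 0.05206 to 0.1261 CPM in Maf.flox and 0.4707 to 0.6594 CPM in Vil.Cre Maf.flox. It passed the filter through the Vil.Cre Maf.flox libraries alone, so its value above 0 follows in part from the filter. Lcp1, the most abundant, had 12.91, 16.76 and 22.67 CPM in Maf.flox and 17.09, 12.98 and 17.89 CPM in Vil.Cre Maf.flox, with overlapping groups. Itgam, a myeloid marker, had 5.718, 7.184 and 7.494 CPM in Maf.flox and 15.32, 11.57 and 10.83 CPM in Vil.Cre Maf.flox. Itgam, Ms4a1 and Trdc had higher values in Vil.Cre Maf.flox without overlap. Ms4a1 and Trdc were under 1 CPM in all libraries, and Trdc was below the filter. Over the genes tested, which leave out Trdc, 10.1% were free of overlap on the higher side. Ptprc was highest in a Maf.flox library. The part of leukocytes in the rise of Upp1 and Slc28a3 was not tested.

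**Figure D3:**
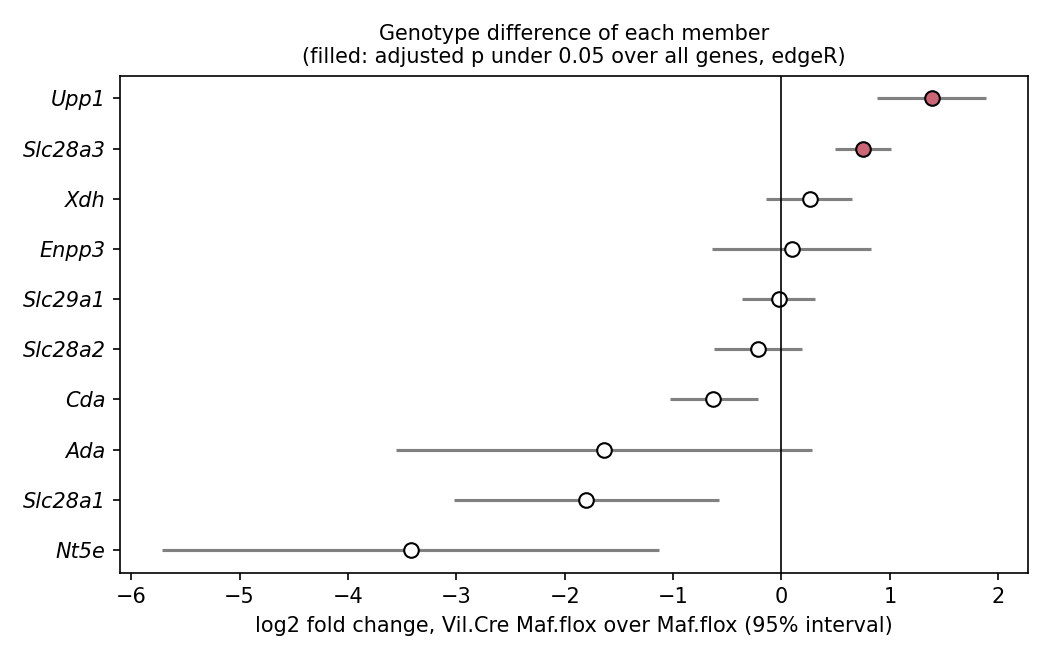
Log2 fold change of each of the 10 genes in Vil.Cre Maf.flox over Maf.flox with its 95% interval, filled where the adjusted p over all genes was under 0.05. Upp1 at 1.39 and Slc28a3 at 0.75 are filled, and Nt5e at -3.42 and Ada at -1.64 have the widest intervals.

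The promoters of the 2 genes that rose and of Slc28a1, the related carrier that lay lower, are shown for comparison. RefSeq promoter windows on GRCm38.p6, from 250 bases before to 50 after a transcript start, were matched by symbol for 9 of the 10 genes. Where a gene had several starts, the window nearest the gene's start in the deposited table was taken, and that of Enpp3 lies 6628 bases from it. Capitals mark matches on either strand to TGCTGA (core letters of a Maf recognition element), TGANTCA (the AP-1 site) or TTCNNNGAA (a STAT site), which do not share bases here.

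Upp1, chr11:9117853-9118152, plus strand: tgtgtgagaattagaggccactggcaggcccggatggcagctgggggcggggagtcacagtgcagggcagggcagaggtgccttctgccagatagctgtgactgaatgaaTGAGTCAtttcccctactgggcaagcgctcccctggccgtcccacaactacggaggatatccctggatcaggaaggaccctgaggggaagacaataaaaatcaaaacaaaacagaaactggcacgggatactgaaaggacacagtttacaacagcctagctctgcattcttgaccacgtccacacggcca
Slc28a3, chr13:58610828-58611127, minus strand: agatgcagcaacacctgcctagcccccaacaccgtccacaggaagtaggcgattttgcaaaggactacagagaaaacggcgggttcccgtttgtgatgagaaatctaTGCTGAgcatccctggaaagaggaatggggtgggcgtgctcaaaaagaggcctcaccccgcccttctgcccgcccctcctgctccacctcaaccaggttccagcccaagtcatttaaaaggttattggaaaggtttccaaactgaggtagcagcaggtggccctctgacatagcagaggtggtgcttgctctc
Slc28a1, chr7:81114549-81114848, plus strand: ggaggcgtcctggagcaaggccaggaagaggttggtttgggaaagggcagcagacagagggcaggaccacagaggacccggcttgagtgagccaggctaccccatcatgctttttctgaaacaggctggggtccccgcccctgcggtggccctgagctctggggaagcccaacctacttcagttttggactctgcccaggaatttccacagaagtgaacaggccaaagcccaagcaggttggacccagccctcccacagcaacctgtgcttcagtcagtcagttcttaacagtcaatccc

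The Upp1 window holds an AP-1 match 140 to 134 bases before the start, the Slc28a3 window a TGCTGA match 143 to 138 bases before it, and the Slc28a1 window holds none of the 3 motifs. Among the 9 windows, TGCTGA was in 1, TGANTCA in 1 and TTCNNNGAA in 2, those of Slc28a2 and Ada. The shares over all 32851 windows in the table were 19.5% for TGCTGA, 7.81% for TGANTCA and 8.3% for TTCNNNGAA. A match is a run of letters in this window and no evidence of binding.

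The other genes of nucleoside metabolism were read from fixed lists, which include the 10 and in which edgeR called Upp1 and Slc28a3. The lists were fixed with earlier results of these data known, so shares over all genes beside them are a description and no test. Over all genes tested, 51.6% lay below 0, 16.4% had an unadjusted p under 0.05 and 10.5% were free of overlap on the lower side. In pyrimidine degradation, 7 of 8 tested genes had values below 0, with a median of -0.61, and 5 of these did not overlap between the groups. Dpyd, which starts the breakdown of uracil and thymine, had 258.6, 238.6 and 171.5 CPM in Maf.flox and 101.3, 163.8 and 119.2 CPM in Vil.Cre Maf.flox, with a log2 fold change of -0.80 (adjusted p = 0.13). Upb1, which ends that pathway, Tymp, which splits thymidine, and Upp2, the second uridine phosphorylase, had log2 fold changes of -0.86, -0.82 and -0.59, and none was called by edgeR. The remaining genes, Cdadc1 at -0.20 and Dctd at -0.05, had overlapping groups. Upp1 was the single gene of the list above 0. The list's median stayed between -0.69 and -0.43 in the alternative fits. DESeq2 called 3 of the list lower, the edgeR fit with the replicate block 2 and that without Maf.flox replicate 3 also 2. Over all genes, these fits called lower 477 of 13740, 308 of 13740 and 577 of 14029.

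The list named purine degradation, which also holds nucleotidases that are not specific to purines, did not share this pattern of values. Of 15 tested genes, 5 lay below 0 and 10 above, with a median of 0.05, and 0 were called (edgeR; the unadjusted p was under 0.05 for 1). Ampd3, an AMP deaminase, had 24.09, 19.78 and 20.44 CPM in Maf.flox and 35.1, 31.42 and 29.78 CPM in Vil.Cre Maf.flox, with no overlap and a log2 fold change of 0.58 (adjusted p = 0.0736). Nt5c3, a cytosolic nucleotidase that acts on pyrimidine nucleotides though placed in this list, had a value of 0.22 (adjusted p = 0.306, edgeR). Gda, which deaminates guanine, had one of -0.70 with overlapping groups. Whether the purine and pyrimidine lists differ was not tested.

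Among 8 tested carriers the median was -0.11, and Slc29a2, Slc29a3, Slc29a4 and Slc23a4 (a nucleobase carrier) had log2 fold changes between -0.39 and 0.14. Of 13 tested ectonucleotidases and phosphatases, 8 lay below 0, with a median of -0.18 and 0 called (edgeR; unadjusted p under 0.05 for 4). Entpd7, an intracellular nucleoside triphosphatase, had 40.32, 41.02 and 23.53 CPM in Maf.flox and 21.1, 20.79 and 22.59 CPM in Vil.Cre Maf.flox, with a log2 fold change of -0.70 (adjusted p = 0.149). Alpi, the alkaline phosphatase of the brush border, had means of 438.3 and 219.8 CPM (adjusted p = 0.198), with 243.3 CPM in Maf.flox replicate 3 inside the Vil.Cre Maf.flox range of 175.4 to 277.5 CPM. Salvage enzymes had a median of -0.03 over 13 genes, with Cmpk2 at -0.60 the lowest, Cmpk1 at 0.20 the highest and Uprt at -0.20. De novo synthesis had medians near 0 for purines (0.02, 12 genes, with Paics at -0.26 and Adsl at 0.17) and pyrimidines (-0.01, 5 genes), where Cad, which starts pyrimidine synthesis, had a value of 0.48 (adjusted p = 0.212) and Dhodh one of -0.04.

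Of the receptors for adenosine and nucleotides, 6 of 8 tested genes lay below 0, with a median of -0.35. P2ry6, the UDP receptor, had 5.466, 6.871 and 1.518 CPM in Maf.flox and 0.8115, 0.8808 and 1.412 CPM in Vil.Cre Maf.flox, a log2 fold change of -2.13 that was not called (adjusted p = 0.124). P2ry1 had a value of -0.27. Of 13 villus tip genes outside the set of 10, 11 lay below 0, with a median of -0.77, and 0 were called (edgeR; unadjusted p under 0.05 for 9, against 16.4% of all genes). DESeq2 called 7 of the 13 lower, edgeR without Maf.flox replicate 3 called 6, and edgeR with the replicate block called 3. Over all genes, these fits called lower 477 of 13740, 577 of 14029 and 308 of 13740. Creb3l3, a membrane-bound transcription factor of enterocytes, had 102.7, 115.5 and 39.46 CPM in Maf.flox and 13.95, 9.043 and 13.91 CPM in Vil.Cre Maf.flox (log2 fold change -2.80, adjusted p = 0.0674). Junb, an immediate early gene, had a value of -0.66 (adjusted p = 0.11). Pmp22 had 222.4, 195.6 and 28.79 CPM in Maf.flox and 26.88, 25.43 and 11.34 CPM in Vil.Cre Maf.flox. Control replicate 3 thus had the lowest control value of Creb3l3 and Pmp22, as it did of Maf, Ada and Nt5e. It was also the lowest control for genes with fold changes above 0, Upp1 (94.24 CPM), Xdh (244.6 CPM) and Enpp3 (16.74 CPM). Slc28a2, Slc28a3 and Slc29a1 had their highest control value in that library. Krt20, a keratin of differentiated villus cells, had a value of 0.02, so the fixed villus tip genes did not all lie lower.

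**Figure D4:**
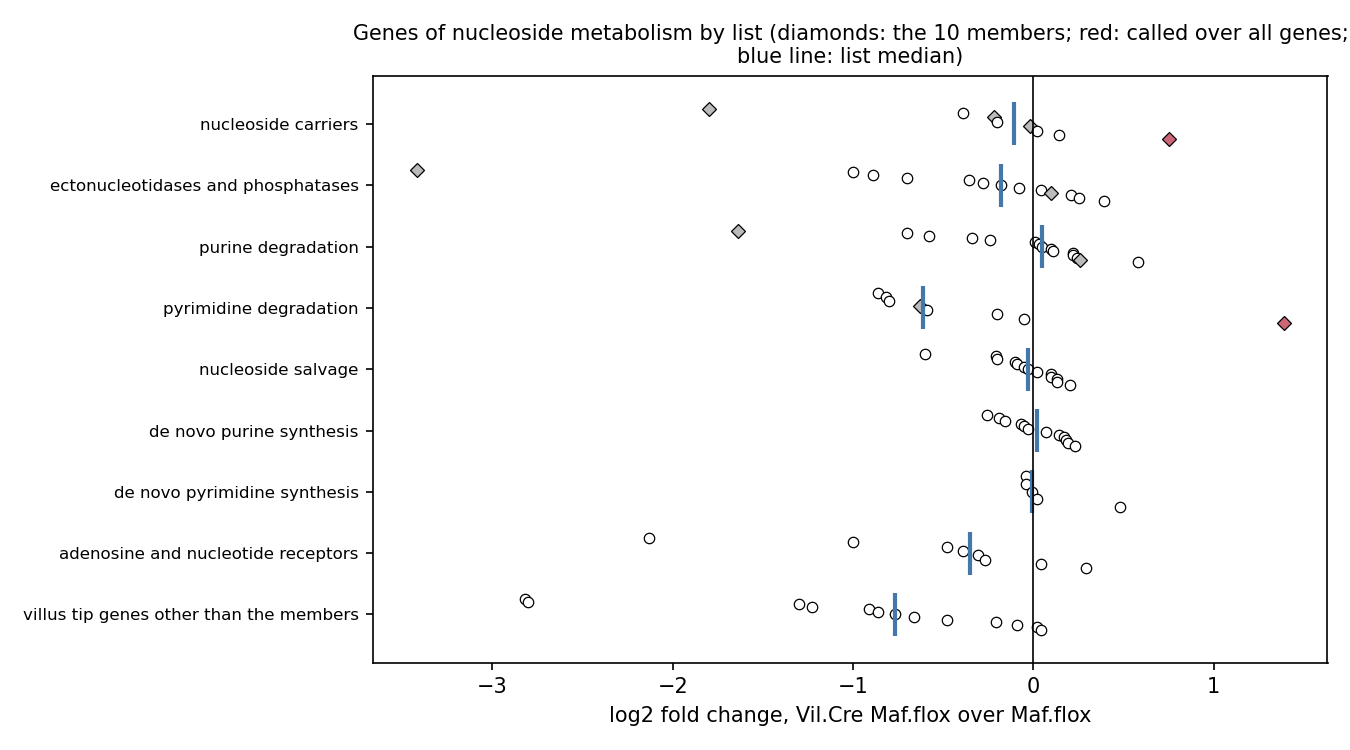
Log2 fold change of each tested gene in 9 fixed lists, with the 10 genes as diamonds, genes called over all genes in red and list medians as blue lines. Upp1 at 1.39 is the single pyrimidine degradation gene above 0, the others lie between -0.86 and -0.05, and the medians of salvage and de novo synthesis lie between -0.03 and 0.02.

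The genes whose pattern over the 6 libraries lay closest to a given gene were found among 10155 genes with a mean of at least 5 CPM. Closeness is the root mean square difference of log2 CPM after each gene is centred on its own mean. For Slc28a3 these were Gsr at 0.05, Arhgef10l at 0.07 and Irf8 at 0.08, with log2 fold changes of 0.69, 0.74 and 0.66. Upp1 was nearest to Nkain1, Cd177 and Ckap4, at 0.17, 0.19 and 0.20, of which Ckap4 rose (log2 fold change 1.27, adjusted p = 0.0236). For Cda these were Id2, Rec8 and Lnx1 at 0.05, 0.07 and 0.12, and for Slc28a1 they were Tef, Cyp4v3 and Abcc2 at 0.25, 0.32 and 0.32. The nearest of Ada, Slc25a48, Aldh4a1 and Clca4b, were farther off at 0.38, 0.41 and 0.43. Xdh was nearest to Smim22, Il13ra1 and Tmem150b, at 0.06 to 0.07, and Enpp3 to Tpsg1, S100a13 and Gm13509, at 0.11 to 0.15. Slc28a2 was nearest to Tmem176a, 1010001N08Rik and Tmem176b, at 0.07 to 0.11, and Slc29a1 to Hpse, Sdc2 and Alg6, at 0.04 to 0.06. Nt5e had too low a mean for this comparison. The 6 points share the genotype difference, so nearness here follows in part from it.

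Within sexes, a split also chosen after the sex read from counts was known, the log2 ratio of mean CPM was 0.81 in males and 0.68 in females for Slc28a3 and 1.37 and 0.99 for Upp1. It was -1.35 and -1.78 for Slc28a1, -0.31 and -0.73 for Cda, -3.09 and -4.60 for Nt5e and -2.16 and -1.73 for Ada. Enpp3 had 0.23 in males and -0.66 in females. With sex as a term, Upp1 had a log2 fold change of 1.18 (adjusted p = 0.0296) and Slc28a3 one of 0.74 (adjusted p = 0.0565). Each sex has a genotype with 1 library, so a difference between sexes and a deviating library cannot be told apart. A sex by genotype interaction, chosen after seeing the data, gave an adjusted p of 1 for each of the 10 (edgeR, 2 residual degrees of freedom), with an unadjusted p of 0.0422 for Enpp3.

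DESeq2 gave 5 calls among the 10, with Slc28a1 (adjusted p = 0.0451), Nt5e (0.00142) and Cda (0.0277) lower beside the 2 that rose, while calling 5.53% of all genes. The edgeR fit with the replicate number as a block gave 4, with Nt5e (0.00885) and Cda (0.0271) lower, and called 3.2% of all genes. The signs of 8 of the 10 held in each of the fits, and those of Enpp3 and Slc29a1, both near 0, did not.

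**Figure D5:**
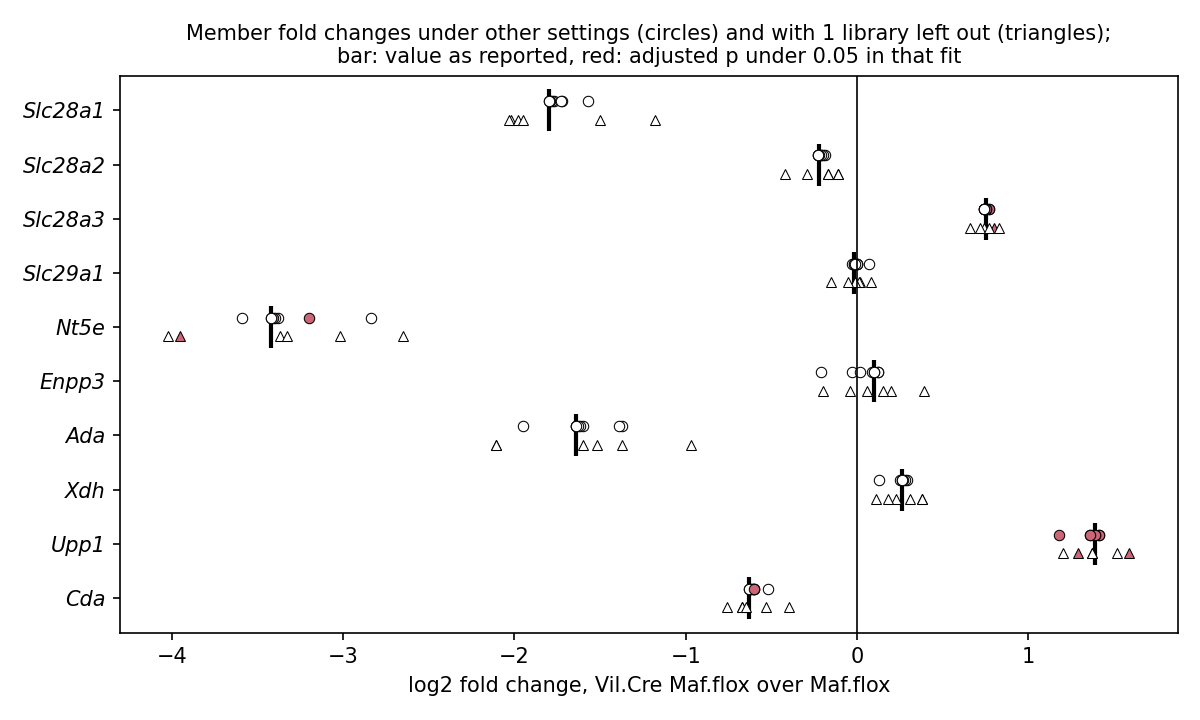
Log2 fold change of each of the 10 genes as reported (bar), under other settings (circles) and with 1 library left out (triangles), red where the adjusted p in that fit was under 0.05. Slc28a3 stays between 0.66 and 0.83 and Upp1 between 1.18 and 1.59, while Nt5e ranges from -4.02 to -2.65.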

How the data were processed

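The submitters' processing notes name HISAT2 2.0.5, featureCounts 1.5.0-p3, DESeq2 and the build GRCm38 (mm10). Strand use in counting is not given in the sources used here. The deposited counts are whole numbers and were not normalised by the authors. The deposited FPKM values equal the count over gene length and over a library size of 0.953 to 1.0735 times the summed counts. They served to compare levels between genes and were not tested.

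Genotype was tested in edgeR 4.0.16 (R 4.3.3) with filterByExpr (least count 10), TMM scaling and the robust quasi-likelihood F test, adjusted over 13740 genes. In 1 set of simulated counts, edgeR made more false calls than its threshold names, and DESeq2 more than edgeR. That set was drawn for each gene on its own, with no deviating library such as Maf.flox replicate 3. It thus does not give the rate of false calls in these data. The 95% intervals come from each fold change's standard error and moderated degrees of freedom, and they cover the spread between libraries. Alternatives were RLE and upper quartile scaling, no filter and a least count of 30, DESeq2 1.42.0, limma-voom (limma 3.58.1), no robust estimation, a sex term, a replicate block, other FDR thresholds and each library left out. Deviations of libraries with the same replicate number had correlations of 0.092, -0.026 and 0.269, and a shared number was not read as a pairing. Replicates differed far beyond counting noise, with a chi-square per gene of at least 35.3.

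The 10 genes, the lists, the motifs and the cell markers were chosen with earlier results of these data known. Named genes are the 10, Maf, the called genes and the 2 of smallest p of each list, and the 3 nearest in pattern. Other list genes were named after their values were seen. 24 symbols listed as dates were restored by identifier.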

Additional observations from a re-analysis of the deposited data

How the results depend on the processing

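The calls depended on the fit more than the fold changes did. Against 2 of the 10 genes called, 5 were called with DESeq2, 4 with the replicate block, 1 with the sex term, and 0 with limma-voom or at FDR 0.01, where 4 and 5 had an unadjusted p under 0.05. Over all genes, against 75 there were 365 with no filter, 760 with DESeq2, 30 with limma-voom, 440 with the replicate block, 38 with the sex term, 372 at FDR 0.1 and 2 at FDR 0.01. With 1 library left out in turn, 0 to 4 of the 10 and 8 to 701 of all genes were called by edgeR. The count of 4 and that of 701 came without Maf.flox replicate 3. In the 4 fits of this kind with 0 calls, 5 or 6 of the 10 had an unadjusted p under 0.05. The leave-out fits had 1 library fewer, and the fit with no filter tested 23108 genes. Why the numbers of calls differed between fits was not tested. Other scalings, the stricter filter and edgeR without robust estimation called 2 of the 10, and Nt5e was not tested under the stricter filter. In the fixed lists, where edgeR called 1 carrier and 1 pyrimidine degradation gene higher and 0 genes lower, DESeq2 called lower 1 carrier, 3 ectonucleotidases and phosphatases, 3 pyrimidine degradation genes, 1 receptor and 7 villus tip genes. The edgeR fit without Maf.flox replicate 3 called lower 3 ectonucleotidases and phosphatases, 1 purine and 2 pyrimidine degradation genes, 1 salvage enzyme, 1 receptor and 6 villus tip genes. Over all genes, 477 of 13740 were called lower by DESeq2 and 577 of 14029 by that edgeR fit.

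Enpp3 changed sign to -0.03 with limma-voom, -0.21 with the sex term, and lay between -0.20 and 0.39 with 1 library left out. Slc29a1 changed sign to 0.07 with the sex term and lay between -0.15 and 0.08 with 1 library left out. Levels per length on the TMM scale moved by less than 1 SD for all 10 genes. A gene at 1 CPM has 17.5 to 24.8 counts, and the 3 to 9 counts of Nt5e in Vil.Cre Maf.flox limit its precision.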
